A study of Mus musculus with 3 samples.

Results

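Insulin cells that also carried somatostatin RNA were compared with insulin cells that carried almost none, within each of 3 mice. The cells were selected on their measured UMI shares of Ins1, Ins2, Sst, Gcg and Ppy. A barcode counted as an insulin cell when it had at least 500 genes, at most 15% mitochondrial UMIs, at least 20% of its UMIs from Ins1 and Ins2 together, under 5% from Gcg and under 3% from Ppy. A UMI (unique molecular identifier) stands for 1 captured RNA molecule. Of 16162 deposited barcodes, 7490 passed the gene and mitochondrial filters and 1586 were insulin cells. Sst supplied at least 1% of the UMIs in 328 insulin cells, under 0.1% in 821, and an amount between these limits in the other 437. The 328 cells came unevenly from the mice, with 22 of 294 insulin cells in mouse 1, 295 of 874 in mouse 2 and 11 of 418 in mouse 3.

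All 3 mice were non-diabetic NOD-SCID females, aged 10 to 11 weeks, a strain that lacks mature T and B cells. Each library held the islets of a single animal, purified on a density gradient, dissociated and sequenced by the 10x Genomics single-cell 3′ method. There was no treatment and no second genotype, so the comparison lies between cell classes of the same animals and not between groups of mice. The labels give no second library for any animal, so animal and library cannot be told apart.

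In the mouse islet, beta cells make insulin from Ins1 and Ins2, and delta cells make somatostatin, a peptide that restrains insulin and glucagon release from neighbouring cells. Delta cells are known for the transcription factor Hhex and for Rbp4 and Ptprz1, while mature beta cells are known for Mafa, Nkx6-1 and the peptide urocortin 3 (Ucn3), which acts on delta cells. RNA of both hormones under 1 barcode may be read from 1 cell, from more than 1 cell in a droplet, or from free RNA in the suspension, and each of these routes is well known in droplet sequencing.

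The proximal promoters of the hormone genes that define the classes are shown because the cells were selected on their RNAs, Ins1 for the shared insulin limit and Sst for the difference between the classes. Ins2, the other insulin gene, is named only. The Sst window lies at chr16:23890795-23891094 on the minus strand and the Ins1 window at chr19:52264047-52264346 on the plus strand of GRCm38.p6, both as listed by RefSeq from 250 bases before to 50 bases after the start. Capitals mark TGACGTCA, the cyclic AMP response element, and TAAT (ATTA on the other strand), the core letters of homeodomain factors such as PDX1, searched on both strands; no base belonged to both motifs.
Sst: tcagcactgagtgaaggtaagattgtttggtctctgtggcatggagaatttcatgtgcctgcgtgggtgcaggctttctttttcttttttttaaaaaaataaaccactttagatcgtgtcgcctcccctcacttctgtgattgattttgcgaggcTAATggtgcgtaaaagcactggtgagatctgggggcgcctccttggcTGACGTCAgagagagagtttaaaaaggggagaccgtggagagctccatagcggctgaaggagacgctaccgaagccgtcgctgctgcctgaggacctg
Ins1: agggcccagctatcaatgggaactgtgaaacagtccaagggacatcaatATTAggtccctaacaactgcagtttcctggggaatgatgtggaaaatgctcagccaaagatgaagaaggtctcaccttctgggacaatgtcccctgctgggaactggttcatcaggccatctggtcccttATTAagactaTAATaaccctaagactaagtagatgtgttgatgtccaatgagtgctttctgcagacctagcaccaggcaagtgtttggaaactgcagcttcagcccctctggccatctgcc
The Sst window held 1 TGACGTCA and 1 TAAT, and the Ins1 window held 0 and 3. Among 32851 promoter windows of the same length, 1.79% held TGACGTCA and 58.0% held TAAT on either strand. These letters are a description of the windows, and no binding was measured.

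The libraries held 32389170, 48076507 and 57849496 UMIs in mice 1, 2 and 3. Mice 1 and 2 shared 148 barcodes, against 9 and 13 for the other pairs of mice. Of the insulin cells with Sst at or above 1%, 3 in mouse 1 and 5 in mouse 2 had a barcode that also occurred in another library, and 1 barcode was in this class in both mice. These shared barcodes held 51.4% of the class's summed UMIs in mouse 1 and 7.66% in mouse 2. The calls, the levels relative to the other classes and the ratios to Sst that rest on them are therefore also given without them. Insulin, which the selection used, supplied 55.6%, 52.5% and 46.6% of the summed UMIs of the cells with Sst at or above 1% in mice 1, 2 and 3, and 65.5%, 67.7% and 64.1% of those with Sst below 0.1%. Ins1, Ins2, Sst, Gcg, Ppy and the mitochondrial genes chose the cells and are described here without a test. The label was read instead from the delta and beta genes below, which the selection did not use. Other genes were not used to select the cells, but they share a total with the hormones, so all their levels are shares of UMIs.

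Sst shares in the selected cells were lower in mice 1 and 2 than in mouse 3. The median Sst share was 3.01%, 2.47% and 6.42% of UMIs in mice 1, 2 and 3 among cells at or above 1%, against 0.0209%, 0.0107% and 0.0202% among cells below 0.1%. Somatostatin cells, taken as barcodes with Sst at or above 10% and insulin below 10% of UMIs, numbered 64, 128 and 515, and their Sst made up 21.3%, 20.4% and 22.6% of summed UMIs. The Sst share of summed UMIs in the selected insulin cells was 4.02%, 3.43% and 6.44%, several times lower than in somatostatin cells of the same mouse. Insulin cells with no Sst UMI at all numbered 1, 24 and 0, all of them by definition below 0.1%.

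Around the 1% limit, mouse 2 had 49 cells from 1 to 1.5% and 91 cells from 0.5 to 1%. Rbp4, a retinol carrier made by delta cells, stood at 578 CPM (UMIs per 1000000 of the summed UMIs, here without further scaling) in the cells just inside and 315 in those just outside. Hhex stood at 22.7 unscaled CPM just inside and at 13.0 just outside. Mouse 1 had 6 and 60 such cells, with Rbp4 at 415 and 280 unscaled CPM. Both genes were already above their level in cells below 0.1% on the outer side of the limit.

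The share of insulin cells with Sst at or above 1% differed widely between mice. It was 7.48% in mouse 1 (exact binomial 95% interval 4.75 to 11.1), 33.8% in mouse 2 (30.6 to 37.0) and 2.63% in mouse 3 (1.32 to 4.66), with a mean of 14.6% ± 16.7 (SD, n = 3 mice). The intervals, which cover counting error only, did not overlap between mouse 2 and either other mouse, nor between mice 1 and 3. Without mouse 2 the mean was 5.06%.

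**Figure D1:**
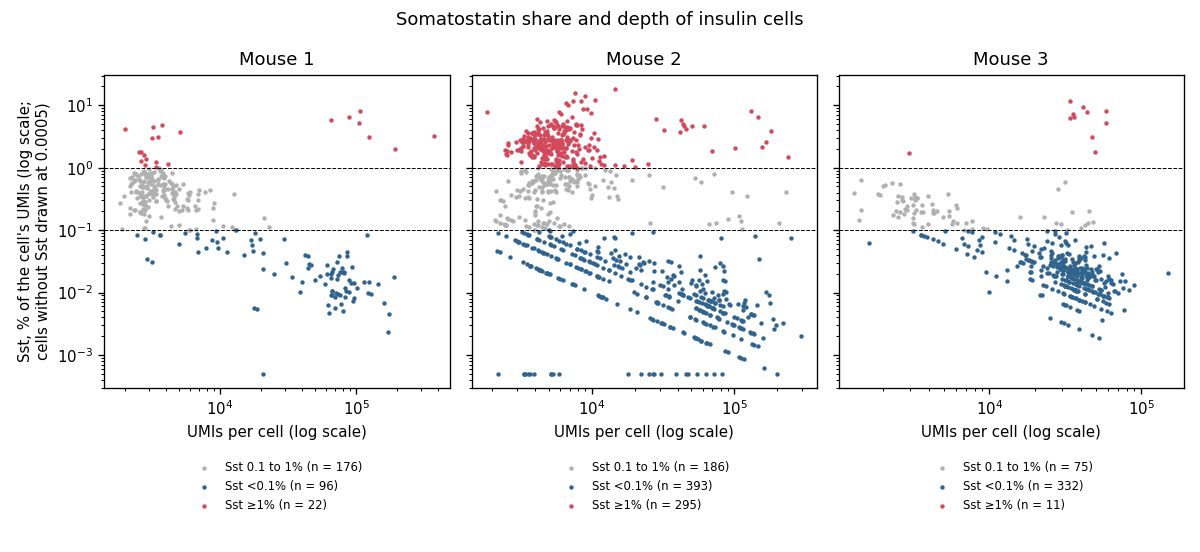
Each point is 1 insulin cell, with its UMIs on the x axis and the share of its UMIs from Sst on the y axis, both on log scales, for mice 1, 2 and 3; dashed lines mark 0.1% and 1%, and cells without Sst are drawn at 0.0005. In mouse 2 most of the 295 cells at or above 1% form a cloud under 10000 UMIs, and in mouse 3 10 of 11 lie at or above 20000 UMIs.

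Cells with somatostatin RNA were shallow in mice 1 and 2 and deep in mouse 3. Their median depth was 3458 UMIs in mouse 1, 5600 in mouse 2 and 41433 in mouse 3. Insulin cells with Sst below 0.1% had medians of 62613, 30299 and 34285 UMIs. The log2 ratio of the medians was -4.18, -2.44 and 0.27, with a mean of -2.11 ± 2.24 (SD, n = 3) and an exact two-sided sign-flip p of 0.5, where 0.25 is the smallest p that 3 mice allow. Genes per cell followed, with medians of 663, 1007 and 5294 against 4887.5, 3302 and 3956.5 (mean log2 ratio -1.39, exact p = 0.5). The direction therefore differed between mice, and no depth difference common to the 3 mice was shown. Cells with Sst from 0.1 to 1% had medians of 3217, 5137 and 3604 UMIs. In mice 1 and 2 a shallow depth was thus not particular to the class. Cells below 0.1% were 8 of 167, 51 of 261 and 9 of 58 insulin cells under 5000 UMIs. From 50000 UMIs they were 53 of 60, 150 of 173 and 53 of 55, so the reference class was itself mostly deep.

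The class held a small deep group in every mouse besides the shallow one. At least 20000 UMIs were found in 7 of 22 cells in mouse 1, 19 of 295 in mouse 2 and 10 of 11 in mouse 3. Those deep cells held 95.7%, 50.3% and 99.3% of the class's UMIs, so summed levels in mice 1 and 3 rest almost wholly on them. Under 10000 UMIs there were 15, 261 and 1 cells. In mouse 2 the share of insulin cells with Sst at or above 1% was 46.4% under 5000 UMIs (40.2 to 52.6, exact 95% interval) and 52.0% from 5000 to 10000 UMIs (45.9 to 58.1). It was 18.8% from 10000 to 20000 (10.9 to 29.0), 9.89% from 20000 to 50000 (4.62 to 17.9) and 5.78% from 50000 UMIs (2.81 to 10.4). In mouse 1 it was 8.38% under 5000 UMIs and 11.7% from 50000 UMIs, with 0 of 17 cells from 20000 to 50000, which allows a share of up to 17.6% by the limit of 3 counts and 19.5% by the exact interval. In mouse 3 it was 1.72% under 5000 UMIs, 3.32% from 20000 to 50000 and 3.64% from 50000 UMIs. A fall with depth was thus seen in mouse 2, whereas the bins of the other mice had overlapping intervals.

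**Figure D2:**
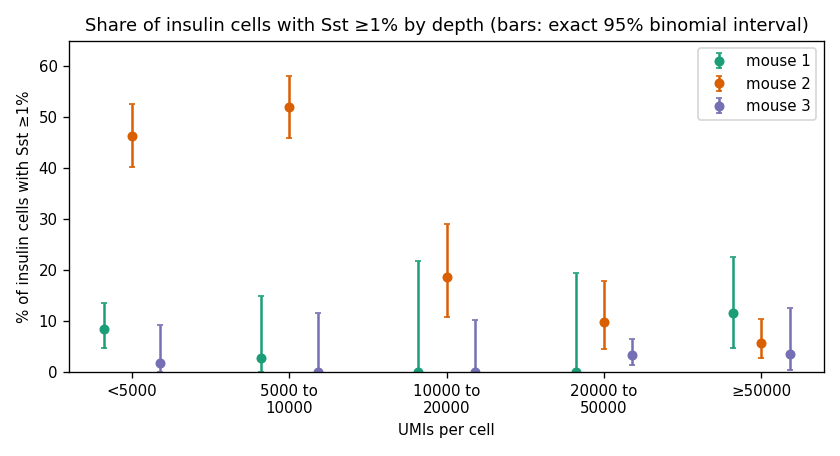
Share of insulin cells with Sst at or above 1% (y axis, percent) in 5 bins of UMIs per cell (x axis), by mouse; bars are exact 95% binomial intervals. Mouse 2 stands at 46.4% and 52.0% in the bins under 10000 UMIs and at 5.78% in the deepest bin, and the other mice stay at or below 11.7% throughout.

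Sst RNA was present in nearly every barcode, including those that should lack it. Barcodes with under 500 genes, taken as the background, had an Sst share of 0.708%, 0.457% and 1.66% of their summed UMIs in mice 1, 2 and 3, and 14.1%, 6.11% and 39.0% of them were at or above 1%. The median Sst share of these barcodes was lower, at 0.574%, 0.141% and 0.821%, with maxima of 44.9%, 41.9% and 34.0%. Their median depth was 1510, 1905 and 901 UMIs, and 97.7%, 90.6% and 99.3% of them held an Sst UMI. Among kept cells, glucagon cells (Gcg at or above 20%) had a summed Sst share of 0.534%, 0.146% and 0.221%, and 4.86%, 3.41% and 2.17% of them were at or above 1%. The median share of glucagon cells was 0.0340%, 0.0287% and 0.0434%. Cells with at least 3 endothelial markers had summed shares of 0.0958%, 0.366% and 0.143%, and 13 of 103 in mouse 2 (12.6%) were at or above 1%, against 0 of 60 in mouse 1, which allows up to 5.0%, and 4 of 264 in mouse 3 (1.52%). Cells with at least 3 macrophage markers reached 1% in 14.3%, 3.57% and 2.75% of cases.

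Set beside these, the insulin share of 33.8% in mouse 2 lay above the 6.11% of its barcodes under 500 genes and the 12.6% of its endothelial cells, with intervals that did not overlap. All intervals in this paragraph cover counting error within a library only, and the groups were not matched for depth. In mouse 3 the 2.63% of insulin cells was close to the 2.17% of glucagon cells, whose interval of 1.42 to 3.17 overlapped it. In mouse 1 the 7.48% of insulin cells lay between the 4.86% of glucagon cells (2.25 to 9.03) and the 14.3% of macrophages (4.03 to 32.7), with overlapping intervals. The share of barcodes under 500 genes exceeded that of insulin cells in mice 1 and 3. What part free RNA plays in the class was not tested.

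Delta genes were carried by the insulin cells with somatostatin RNA in all 3 mice. Levels were compared over sums of UMIs per mouse and class with edgeR's quasi-likelihood test, the mouse as a block and Benjamini-Hochberg adjustment over all 10714 genes tested, and are given as TMM-scaled CPM. In such sums, fewer cells with a gene and less of its RNA per cell cannot be told apart. Across all genes, 7.54% were higher and 3.87% lower in cells with Sst at or above 1% than in those below 0.1% (806 and 414 of 10696 genes that the selection did not use, false discovery rate 0.05), with a median log2 difference of 0.01. Without TMM scaling that median was 0.28 and the calls were 1757 higher and 107 lower. With the shared barcodes left out they were 806 and 446. Of the 9 genes of the delta list, 8 passed the filter on low counts, 7 of these were higher, 0 were lower and Casr did not pass. Their median log2 difference was 5.90. These figures are a description: low genes such as Ghsr and Crhr2, with 2 and 1 UMIs below 0.1% Sst, passed the filter through the classes in which they are high. So did Hhex, Ptprz1, Spock3 and Ffar4, with means of 1.12, 0.620, 0.0659 and 1.73 TMM-scaled CPM below 0.1% Sst. Their p-values carry the same limit.

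Hhex, the transcription factor that maintains delta cell identity (chr19:37434810-37440731, plus strand, GRCm38), stood at 69.3, 103 and 78.4 CPM in mice 1, 2 and 3 in the insulin cells with Sst at or above 1%. It stood at 1.58, 0.808 and 0.972 CPM in those below 0.1%, so the classes did not overlap. The log2 difference was 6.41 (SE 0.21, adjusted p = 2.5e-22, edgeR). Rbp4 (chr19:38116629-38125281, minus strand) stood at 2621, 2604 and 3078 CPM against 26.3, 21.3 and 32.8 CPM. The classes lay far apart in every mouse, and the log2 difference was 6.70 (SE 0.12, adjusted p = 9.3e-28, edgeR). On unscaled CPM, Rbp4 stood at 2060.5, 1965 and 3388 against 18.1, 13.3 and 26.0, highest in mouse 3 in both classes. Ptprz1, a receptor tyrosine phosphatase (chr6:22875502-23052916, plus strand), stood at 43.9, 38.2 and 26.8 CPM against 1.05, 0.808 and 0 CPM. Its log2 difference was 5.94 (SE 0.31, adjusted p = 8.2e-15, edgeR), and the lower class rested on 13 UMIs in all.

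Of the other delta genes, Ffar4, a receptor for long-chain fatty acids, stood at 18.5, 21.7 and 37.1 CPM against 1.31, 1.62 and 2.27 CPM (adjusted p = 1.0e-12, edgeR). Spock3, a secreted proteoglycan, had 62 UMIs in the class with somatostatin RNA and 2 in the class without, a ratio of 228 relative to the summed UMIs with a counting interval of 60.4 to 1922. Crhr2, the receptor on which urocortin 3 acts, had 14 and 1 UMIs, a ratio of 103 (15.6 to 4348). Ghsr, the ghrelin receptor, had 9 and 2 UMIs, a ratio of 33.1 (6.84 to 314). All 4 genes passed the edgeR test, but counts this small fix the size of the last 3 differences poorly. Casr, the calcium-sensing receptor, stood at 3.46, 3.28 and 8.25 CPM against 2.63, 4.49 and 6.59 CPM, with overlapping classes and a log2 difference of -0.18 (adjusted p = 0.87, edgeR).

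Beta genes were lower in the insulin cells with somatostatin RNA, by much smaller factors. All 10 genes of the beta list were tested; 6 were lower, 0 were higher and 4 did not pass, with a median log2 difference of -0.77. Mafa, a transcription factor of mature beta cells (chr15:75745490-75748228, minus strand), stood at 305, 234 and 148 CPM against 474, 431 and 357 CPM in cells below 0.1%. Each mouse was lower, and the highest value of the one class lay below the lowest of the other (log2 difference -0.92, SE 0.20, adjusted p = 0.027, edgeR). The call was lost without mouse 1 (-1.09, adjusted p = 0.11) and without the block for mouse (-0.87, adjusted p = 0.34). Nkx6-1, a transcription factor that maintains beta cell identity (chr5:101658139-101664996, minus strand), stood at 133, 103 and 161 CPM against 224, 216 and 228 CPM (log2 difference -0.83, SE 0.12, adjusted p = 7.3e-06, edgeR). Ucn3 (chr13:3940688-3945349, minus strand) stood at 130, 99.7 and 126 CPM against 241, 234 and 305 CPM (log2 difference -1.14, SE 0.13, adjusted p = 3.2e-07, edgeR). The classes did not overlap for either gene. With the shared barcodes left out, the log2 differences were 6.57 for Hhex, 6.63 for Rbp4, 6.12 for Ptprz1, -1.14 for Mafa, -0.82 for Nkx6-1 and -1.32 for Ucn3, and each kept its call.

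Genes of glucose sensing and granule function moved unevenly. Slc2a2, the GLUT2 glucose transporter, stood at 249, 276 and 217 CPM against 518, 531 and 512 CPM and fell by 1.08 on the log2 scale (adjusted p = 1.3e-07, edgeR). Slc30a8, the zinc transporter of insulin granules, stood at 257, 260 and 243 CPM against 473, 481 and 483 CPM and fell by 0.93 (adjusted p = 4.1e-08, edgeR). Pdx1, a transcription factor that delta cells also express, fell by 0.43 after TMM scaling (adjusted p = 0.011, edgeR), a call that was lost without mouse 1 (adjusted p = 0.13) or mouse 3 (adjusted p = 0.061). On unscaled CPM, Pdx1 stood at 51.7, 69.7 and 102 against 78.1, 67.8 and 96.1, lower in mouse 1 only. G6pc2, the islet glucose-6-phosphatase, stood at 401, 271 and 231 CPM against 481, 484 and 458 CPM and did not pass (adjusted p = 0.26, edgeR), although it passed without mouse 1 (adjusted p = 0.0497) and without mouse 3 (adjusted p = 0.0048). Iapp, the peptide amylin that is secreted with insulin, and the incretin receptor Glp1r did not pass in the full set (adjusted p = 0.38 and 0.73, edgeR). Iapp fell by 0.60 without mouse 1 (adjusted p = 0.0012, edgeR) and by 0.59 with the shared barcodes left out.

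**Figure D3:**
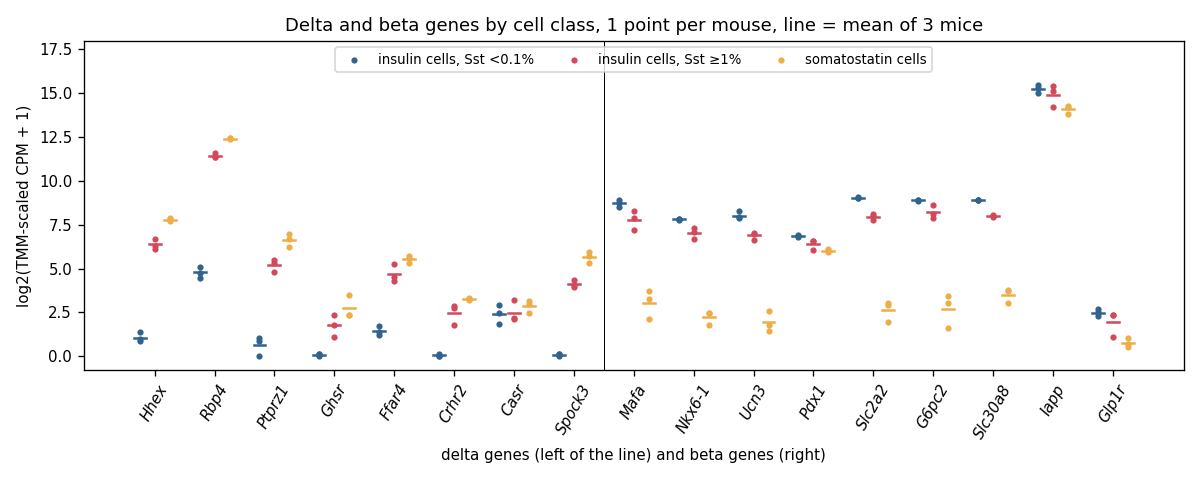
Levels of 8 delta genes and 9 beta genes as log2(TMM-scaled CPM + 1) on the y axis, with 1 point per mouse and a line at the mean of 3 mice, for insulin cells with Sst below 0.1%, insulin cells with Sst at or above 1% and somatostatin cells. On this log axis, Hhex, Rbp4 and Ptprz1 in the middle class lie near somatostatin cells, and Mafa, Nkx6-1 and Ucn3 near the other insulin cells. On unscaled CPM without logs, Hhex lies 15.3%, 21.1% and 23.6% of the way to somatostatin cells in mice 1, 2 and 3. Ucn3 lies at 40.2%, 49.9% and 43.1% on that scale.

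Compared with somatostatin cells, the same insulin cells had less of the delta genes and far more of the beta genes. Both contrasts use the same sums of the cells with Sst at or above 1%, so they are not independent. Of all genes, 8.21% were higher and 5.67% lower than in somatostatin cells (878 and 606 of 10696). Without TMM scaling the calls were 252 higher and 8070 lower, around a median of -0.97 in place of -0.02, and with the shared barcodes left out they were 729 and 537. Of 8 delta genes, 5 were lower, 0 were higher and 3 did not pass, and of 10 beta genes 8 were higher, 0 were lower and 2 did not pass. Hhex stood at 224, 236 and 205 CPM in somatostatin cells and was 2.59-fold lower in the insulin cells (log2 difference -1.37, adjusted p = 9.3e-11, edgeR). Rbp4 stood at 5470, 5469 and 5274 CPM there and was 1.96-fold lower (adjusted p = 1.1e-09, edgeR). Mafa stood at 8.78, 12.2 and 3.43 CPM in somatostatin cells, 32.0-fold below the insulin cells (adjusted p = 1.9e-05, edgeR), and Ucn3 at 5.08, 2.38 and 1.67 CPM, 52.0-fold below (adjusted p = 5.0e-16, edgeR).

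The level of each gene was then placed between the 2 reference classes of the same mouse, on unscaled CPM, where 0% is the level in insulin cells below 0.1% Sst and 100% that in somatostatin cells. For the hormones that chose the cells, Sst lay 18.8%, 16.8% and 28.4% of the way in mice 1, 2 and 3, and Ins1 and Ins2 together 15.7%, 23.1% and 27.7%. Hhex lay at 15.3%, 21.1% and 23.6%, Rbp4 at 23.8%, 22.8% and 36.1%, and Ptprz1 at 21.2%, 14.5% and 22.8%. Over the 3 mice these delta genes spanned 14.5% to 36.1% and the hormones 15.7% to 28.4%. Ffar4 lay at 18.5%, 25.8% and 44.2%. Mafa lay at 27.7%, 37.2% and 43.0%, Ucn3 at 40.2%, 49.9% and 43.1%, and Slc2a2 at 46.4%, 38.6% and 41.7%. Each of these 3 beta genes lay further along than Sst and than insulin in every mouse, but other beta genes did not: G6pc2 lay at 5.14%, 33.8% and 30.1%. Nkx6-1 was uneven too, at 33.9%, 44.7% and 2.04%, with mouse 3 at the level of the other insulin cells on this scale. With the shared barcodes left out, a value added after the data were seen, mouse 1 moved to 24.996% for Sst, 27.9% for insulin, 18.3% for Hhex, 22.4% for Rbp4, 29.9% for Ptprz1, 41.2% for Mafa, 11.8% for Nkx6-1, 46.6% for Ucn3 and 40.5% for Slc2a2.

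**Figure D4:**
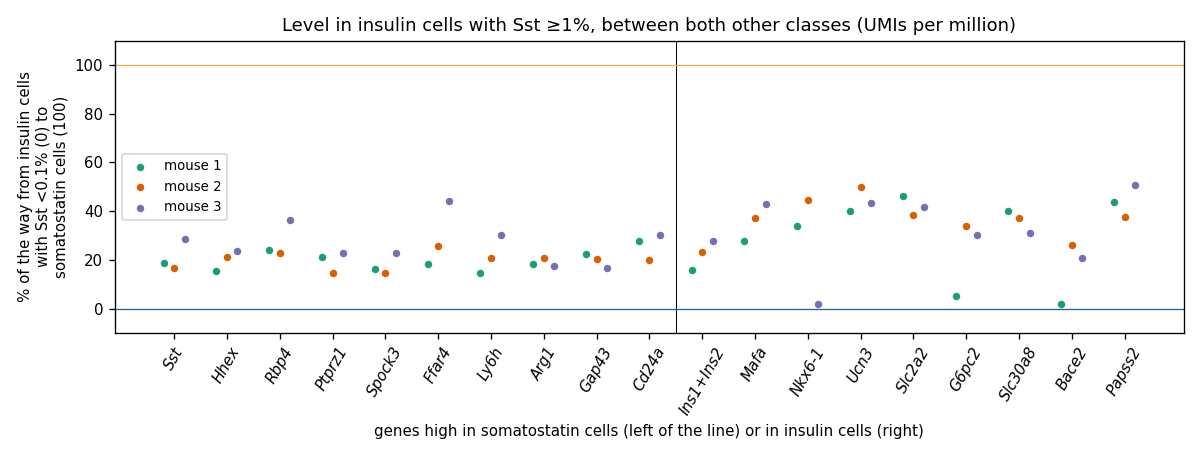
Position of insulin cells with Sst at or above 1% on the y axis, from insulin cells with Sst below 0.1% (0) to somatostatin cells (100), for 10 genes high in somatostatin cells and 9 entries high in insulin cells, with 1 point per mouse, from unscaled CPM. Sst, Hhex and Ptprz1 lie between 14.5% and 28.4% in all 3 mice, and Ucn3 and Slc2a2 lie between 38.6% and 49.9%. Other plotted genes break this separation. Rbp4 reaches 36.1% and Ffar4 44.2% in mouse 3, while Nkx6-1 lies at 2.04% in mouse 3. G6pc2 lies at 5.14% and Bace2 at 1.93% in mouse 1.

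Delta genes were also set against Sst itself. After subtraction of the level in insulin cells below 0.1%, there were 51.0, 57.1 and 52.4 Rbp4 UMIs per 1000 Sst UMIs in mice 1, 2 and 3. The ratio was 40.4, 41.9 and 41.3 in somatostatin cells and 52.3, 60.1 and 67.7 in barcodes under 500 genes, where nothing was subtracted. Hhex had 1.33, 2.27 and 1.33 UMIs per 1000 Sst UMIs, against 1.65, 1.81 and 1.61 in somatostatin cells and 2.31, 4.25 and 2.02 in barcodes under 500 genes. Ptprz1 had 0.844, 0.828 and 0.460, against 0.754, 0.959 and 0.573 and against 0.835, 0.916 and 0.867. For Rbp4 the insulin cells lay above somatostatin cells in each mouse and below barcodes under 500 genes. With the shared barcodes left out, the Rbp4 ratio was 36.2, 57.2 and 52.4 against 40.4, 41.9 and 41.3 in somatostatin cells, so mouse 1 then lay below them. In the deep cells of mouse 2 the Rbp4 ratio was 70.9, and in its shallow cells 41.0.

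Cells of like depth were compared next, a choice made after the data were seen. At 20000 UMIs or more, where mice had 7, 19 and 10 cells with somatostatin RNA and 68, 229 and 274 without, Sst made up 4.09%, 3.73% and 6.47% of summed UMIs. Hhex had 53.1, 105 and 86.8 unscaled CPM in those deep cells against 0.571, 0.486 and 0.727 in deep cells below 0.1%, and a log2 difference of 6.71. Mafa was 0.91 lower (adjusted p = 0.014), Nkx6-1 0.80 lower (adjusted p = 0.00050) and Ucn3 1.10 lower on the log2 scale, all by edgeR. The 6 genes thus kept their direction and their call among deep cells.

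Among cells under 10000 UMIs, only mice 1 and 2 had enough cells with somatostatin RNA (15 and 261, against 17 and 113 without), and mouse 3 was left out. In mouse 2, Hhex had 46.5 unscaled CPM against 1.60, which rests on 1 UMI, and Rbp4 had 1271 against 54.2. Mafa had 159 against 314 and Ucn3 52.9 against 68.6 unscaled CPM. The log2 differences by edgeR were 3.47 for Hhex (adjusted p = 0.0037), -1.13 for Mafa (adjusted p = 0.047), -1.48 for Nkx6-1 (adjusted p = 0.059) and -0.56 for Ucn3 (adjusted p = 0.51). Hhex, Rbp4 and Ptprz1 were thus higher among shallow cells too, while the calls for Nkx6-1 and Ucn3 were lost at this depth. The shallow cells with somatostatin RNA summed to 47901 UMIs in mouse 1 and 1418174 in mouse 2, so these results rest mainly on mouse 2. Gm42418, a gene model overlapping ribosomal RNA repeats, took 7.09% of UMIs in these shallow cells of mouse 2 with somatostatin RNA and 6.32% in those without, against 0.565% and 0.713% in the deep cells. In mouse 1 it took 22.0% and 9.15% in the shallow cells.

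After thinning every cell to 2000 UMIs, which left out 1 cell of the class in each of mice 1 and 2, Rbp4 was found in 81.0%, 86.7% and 100% of cells with somatostatin RNA and in 7.29%, 6.87% and 7.85% of those without. Hhex was found in 9.52%, 8.84% and 18.2% of the former, on 2, 26 and 2 cells, and in 3 of 96, 0 of 393 and 1 of 331 cells of the latter. Mafa was found in 28.6%, 23.8% and 27.3% against 46.9%, 40.7% and 49.2%, and Ucn3 in 4.76%, 11.9% and 18.2% against 16.7%, 22.6% and 35.6%. Each of these 4 differences had the same sign in 3 of 3 mice (exact two-sided sign-flip p = 0.25, the smallest possible). Nkx6-1 was found in 9.52%, 11.6% and 36.4% against 24.0%, 19.1% and 28.4%, lower in 2 of 3 mice (exact p = 0.75). Ptprz1 was found in 14.3%, 4.42% and 0% of cells with somatostatin RNA, and in 0% of those without in each mouse. In mouse 3 it was found in 0 of 11 cells of the class, so its difference was not seen there (exact two-sided sign-flip p = 0.5). Without thinning, the mean shares were 52.5% and 3.23% for Hhex, 97.6% and 45.0% for Rbp4, 63.8% and 91.3% for Mafa, 53.9% and 86.7% for Nkx6-1, and 52.7% and 83.7% for Ucn3. The classes differed in depth, so these unthinned shares cannot be compared directly.

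Thinned cells with somatostatin RNA also held slightly more genes than thinned cells without it. The median was 473, 461 and 627 genes per 2000 UMIs in mice 1, 2 and 3 against 442, 418 and 494, and it was 876, 875 and 927 in somatostatin cells.

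Doublet scores were higher in the cells with somatostatin RNA, chiefly in mouse 3 and among deep cells. The score comes from Scrublet, which rates each cell by its likeness to simulated sums of cell pairs from the same library. Ins1, Ins2 and Sst, which chose the class, were not removed before scoring. The scores are therefore not independent of the selection, and their differences are a description. Medians were 0.0661, 0.0463 and 0.181 in mice 1, 2 and 3, against 0.0296, 0.0390 and 0.0177 in cells below 0.1%. The difference was 0.0365, 0.00737 and 0.163, positive in 3 of 3 mice (exact two-sided sign-flip p = 0.25, the smallest possible). Among the highest scores of each library, taken at 0.8% per 1000 barcodes, were 2 of 22, 10 of 295 and 10 of 11 of these cells, and 3 of 96, 16 of 393 and 21 of 332 of the cells below 0.1%. Deep cells with somatostatin RNA had medians of 0.110, 0.0868 and 0.203, and the shallow ones under 10000 UMIs had 0.0468 and 0.0437 in mice 1 and 2. Deep cells below 0.1% had medians of 0.0275, 0.0390 and 0.0162.

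Scrublet's own threshold marked few cells, 9 of 1145, 9 of 2705 and 13 of 3640 kept barcodes, and 0, 1 and 0 of the class. When the score was computed on insulin and somatostatin cells alone, the class differed from cells below 0.1% by 0, 0 and 0.201 in mice 1, 2 and 3 (exact p = 1). The threshold of that run marked 7 of 22, 1 of 295 and 6 of 11 cells of the class, against 8 of 96, 0 of 393 and 6 of 332 cells below 0.1% and 7 of 64, 0 of 128 and 2 of 515 somatostatin cells. The marked share of the class was thus above that of the other classes in mice 1 and 3, and the median score differed in mouse 3. This run also kept the hormone genes that chose the class, so these differences are a description. Whether doublets make up the class was not tested.

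**Figure D5:**
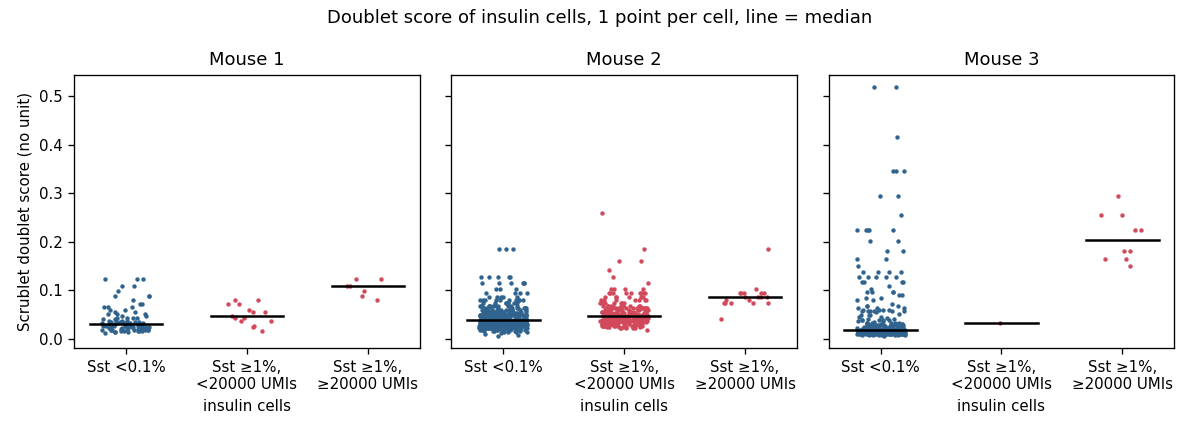
Scrublet doublet score on the y axis for insulin cells with Sst below 0.1%, and for those with Sst at or above 1% under and from 20000 UMIs, with 1 point per cell and a line at the median, for mice 1, 2 and 3. The deep cells with somatostatin RNA have medians of 0.110, 0.0868 and 0.203, above those of cells below 0.1%.

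Beyond the markers, the largest increases named by rule were Ly6h, Arg1, Rbp4, Gap43, Hhex, Pyy, Cd24a, Ehf, Fabp5 and Fam159b, out of 35 genes that met the rule. Ly6h, a membrane-anchored protein of the Ly6 family, stood at 87.7, 139 and 153 CPM against 0.788, 0.180 and 0.756 CPM (log2 difference 7.94, SE 0.24, adjusted p = 2.9e-18, edgeR). Arg1, the urea-cycle enzyme arginase, stood at 84.3, 95.6 and 47.4 CPM against 0.525, 0.539 and 0.756 CPM (6.92, adjusted p = 2.5e-22). Pyy, which encodes the hormone peptide YY, stood at 4898, 7141 and 7423 CPM against 92.7, 70.6 and 252 CPM (5.66, adjusted p = 0.0069, edgeR). Its classes lay far apart in every mouse, yet the call was lost without mouse 1 (adjusted p = 0.15) and without mouse 2 (adjusted p = 0.11). Fabp5, a fatty acid binding protein, lost its call without mouse 3 (adjusted p = 0.17). All 10 genes had higher mean CPM in somatostatin cells than in the insulin cells with somatostatin RNA, such as Ly6h at 313 ± 12.7 against 126 ± 34.2 CPM (SD, n = 3).

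The largest decreases named by rule were T2, Cntfr, Adh1, Ucn3, Defb1, Rasgrf1, Slc2a2, Tmem215, Papss2 and Myt1l, out of 14 that met it. They spanned log2 differences of -1.78 to -1.06, so the strongest fall was smaller than the weakest of the 10 increases, 3.37 for Fam159b. Cntfr, the receptor subunit for ciliary neurotrophic factor, stood at 25.4, 18.9 and 18.6 CPM against 52.0, 47.9 and 59.3 CPM (-1.32, adjusted p = 3.5e-07, edgeR). Adh1, an alcohol dehydrogenase, stood at 21.9, 22.2 and 20.6 CPM against 57.5, 49.9 and 59.3 CPM (-1.29, adjusted p = 2.4e-07). Rasgrf1, a Ras exchange factor, stood at 26.5, 25.9 and 24.7 CPM against 57.5, 53.6 and 61.3 CPM (-1.13, adjusted p = 1.8e-06). In none of these did the classes overlap.

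Lists of 10 genes each that separated delta from beta cells in earlier results of these same libraries are given as a description. All 10 delta genes were higher than in cells below 0.1% (median log2 difference 5.66), and all 10 beta genes were lower (median -0.85). Against somatostatin cells, 9 of the 10 delta genes were lower and all 10 beta genes were higher. On the scale between the reference classes, the delta list had a median of 17.8%, 20.4% and 19.8% in mice 1, 2 and 3, and the beta list 19.6%, 38.8% and 32.9%.

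Genes shared by endocrine cells changed in both directions, by -0.56 to 0.90 on the log2 scale. Of 14 tested, 2 were higher (Chgb at 0.73 and Isl1 at 0.90 on the log2 scale), 3 were lower and 9 did not pass. Over all genes, 7.54% were higher and 3.87% were lower. Chga, the granule protein chromogranin A, stood at 3225, 3535 and 3751 CPM against 4849, 4784 and 5655 CPM (-0.54, adjusted p = 3.7e-06, edgeR), while somatostatin cells had 609, 686 and 639 CPM. Neurod1, a transcription factor of endocrine cells, fell by 0.56 (adjusted p = 0.00036), a call lost without mouse 2 (adjusted p = 0.062). Pcsk1, the prohormone convertase that cleaves proinsulin, fell by 0.42 (adjusted p = 0.011), lost without mouse 3 (adjusted p = 0.19).

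Progenitor and immature endocrine genes were partly higher. Of 10 tested, Neurog3, Fev, Cd81 and Gast were higher, Btbd17 was lower and 5 did not pass. Over all genes, 7.54% were higher and 3.87% were lower. The count is a description, because Neurog3 and Gast passed the filter on low counts through the classes in which they are high. Gast had 12 UMIs in the class and 7 in cells below 0.1%, a ratio of 12.6 (4.57 to 37.7, counting error only). Neurog3, the transcription factor that starts endocrine differentiation, had 41 UMIs in the class and 2 in cells below 0.1%, a ratio of 151 (39.1 to 1285, counting error only). It stood at 9.24, 13.1 and 2.06 CPM, against 31.9, 26.5 and 34.3 CPM in somatostatin cells. Cd81, a tetraspanin, stood at 100, 112 and 105 CPM against 27.1, 21.4 and 37.5 CPM (1.96, adjusted p = 2.9e-10, edgeR) and at 199, 181 and 194 CPM in somatostatin cells. Both genes thus followed the order seen for the delta genes.

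Of 10 genes through which somatostatin acts, 5 were tested and 0 passed in either direction, too few to set apart from the 7.54% and 3.87% over all genes. Gnao1, a G protein subunit of inhibitory receptors, was closest, at 94.7, 91.9 and 109 CPM against 81.9, 77.4 and 72.1 CPM (0.33, adjusted p = 0.056, edgeR). It passed with the shared barcodes left out (adjusted p = 0.042) and among cells of at least 20000 UMIs (adjusted p = 0.034). Sstr3, a somatostatin receptor, stood at 32.3, 31.6 and 51.5 CPM against 45.2, 36.8 and 54.8 CPM (-0.29, adjusted p = 0.28). The list's median log2 difference was 0.33, with 0.01 over all genes.

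Markers of other cell types were read for the same sums. Their calls, here and for the acinar, duct and non-epithelial lists below, stand beside 7.54% of all genes higher and 3.87% lower. Of 7 alpha markers 5 were tested, with Gc and Irx2 higher and Slc7a2 lower; Gc lost its call without mouse 2 (adjusted p = 0.18), and Irx2 had 0, 6.16 and 2.06 CPM against 1.58, 0.359 and 0.540 CPM. The summed alpha markers were 0.0608% to 0.0904% of UMIs against 0.0572% to 0.0984% in cells below 0.1%, and Irx1 was at 0 in mice 1 and 3. Of 3 gamma markers 2 were tested and both, Pyy and Folr1, were higher, and the summed list was 0.389% to 0.824% against 0.00510% to 0.0210% of UMIs, and 1.85% to 2.07% in somatostatin cells. Whether gamma cells play a part was not tested.

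Acinar genes, which encode digestive enzymes, were 10 of 10 above their level in cells below 0.1% by fitted value and 0 of 10 passed, with a median log2 difference of 0.69. Their summed share was 0.221%, 1.74% and 0.0517% of UMIs in mice 1, 2 and 3 against 0.162%, 0.679% and 0.0387%, and 3.99%, 20.7% and 4.98% in barcodes under 500 genes. No acinar gene was at 0 in mice 1 and 2. In deep cells alone Clps and Cel, which encode colipase and an exocrine lipase, were lower, by -0.90 and -1.12 (adjusted p = 0.0030 and 0.0069, edgeR). Of 5 duct genes tested of 7, Krt18 and Sox9 were higher and Krt7 was lower, and Cftr was at 0 in all 3 mice; the summed list was 0.0294% to 0.0402% against 0.0213% to 0.0280% of UMIs. All 3 calls were lost on leaving out single mice, Krt18 without mouse 2 (adjusted p = 0.23), Sox9 without mouse 3 (adjusted p = 0.18) and Krt7 without mouse 2 (adjusted p = 0.79) or mouse 3 (adjusted p = 0.11). Sox9 had only 9 UMIs in the class and 5 in cells below 0.1%. The part of acinar and duct RNA in the class was not tested.

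Non-epithelial markers were scarce. Of 8 endothelial markers 2 were tested and Esam was higher, a call lost without mouse 2 (adjusted p = 0.88); the summed list was 0.000817% to 0.00867% of UMIs against 0.000615% to 0.00240%, with Cdh5, Plvap, Kdr, Flt1 and Emcn at 0 in mice 1 and 3. Of 8 macrophage markers C1qa alone was tested, at 88.9, 59.9 and 51.5 CPM against 17.6, 15.8 and 24.96 CPM (1.78, adjusted p = 7.0e-06, edgeR). C1qa, a complement subunit, stood at 138, 128 and 118 CPM in somatostatin cells, and Csf1r was at 0 in the class in all 3 mice. The summed macrophage list was 0.00585% to 0.00717% against 0.00135% to 0.00390% of UMIs. None of 6 mesenchymal markers passed the filter on low counts; their sum was 0.000619% to 0.000817% of UMIs against 0.0000724%, 0.0000561% and 0.000880% in cells below 0.1% of mice 1, 2 and 3. The class was thus above those cells in mice 1 and 2 and below them in mouse 3, and the part of mesenchymal RNA was not tested.

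Calls among stress genes are to be read beside the 7.54% of all genes that were higher and the 3.87% that were lower. Of 13 genes of protein folding and ER stress 12 were tested, with Atf3 higher (1.97, adjusted p = 0.033, edgeR; 0.23 without mouse 1, 0.28 without mouse 2 and 0.064 without the shared barcodes), Atf4 lower (-0.47, adjusted p = 0.0016; 0.11 without mouse 2) and 10 not passing. Of 10 immediate-early and heat-shock genes of the dissociation response, Egr1, Hspa1a, Hspa1b and Jun were higher, 0 were lower and 6 did not pass. Egr1 stood at 472, 488 and 852 CPM against 284, 260 and 487 CPM (0.81, adjusted p = 5.6e-08, edgeR), and was highest in somatostatin cells at 641, 722 and 927 CPM. Jun lost its call without mouse 1 (adjusted p = 0.096) and Hspa1b without mouse 3 (adjusted p = 0.070), and without the block for mouse none of these 4 passed (adjusted p = 0.086 to 0.42). Of 10 cell cycle genes 7 were tested, Top2a was lower and 6 did not pass; Top2a stood at 0, 0.410 and 0 CPM against 1.05, 6.55 and 10.8 CPM, and 0 to 6.67 CPM in somatostatin cells.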

How the data were processed

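Single-cell 3′ libraries of islets from 3 mice, 1 library each, were read from the deposited UMI counts per gene and barcode. Per the submitters' processing notes, Cell Ranger 2.2 and mm10 were used, whereas the matrix header of the deposited files names software 3.1.0. Of 31053 gene IDs, 30934 were found in the GENCODE M21 annotation of GRCm38 and 119 were not.

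Classes were cut from each barcode's UMI shares, as described above, and UMIs were summed per mouse and class, with at least 5 cells a sum. The 9 sums were tested by the quasi-likelihood test of edgeR 4.0.16, run under R 4.3.3 with limma 3.58.1, after its filter on low counts and TMM scaling. The fit was robust, mouse was a block, and p-values were adjusted by Benjamini-Hochberg to a false discovery rate of 0.05. DESeq2 1.42.0 was an alternative. The block rests on the classes being parts of the same animal. Deviations of sums of the same mouse correlated at 0.30 to 0.87 over 1364 genes, and those of other mice at -0.84 to 0.28. Because the deviations were taken from class means over 3 mice, positive correlations within mice force lower ones between mice. These ranges are therefore not independent. Depth, score and detection were compared with an exact two-sided sign-flip test over 3 mice. The scripts were tested on simulated data. Scrublet ran per library in scanpy 1.11.5 (under Python 3.11.15, with scipy 1.17.1, numpy 2.4.6 and pandas 2.3.3; figures by matplotlib 3.10.9), and no barcode was removed as a doublet except in an alternative.

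Members and lists (delta, beta, 2 earlier delta and beta lists, pan-endocrine, alpha, gamma, acinar, duct, endothelial, macrophage, mesenchymal, immature, somatostatin signalling, ER stress, dissociation and cell cycle) were chosen with earlier results of these data known. Named genes were all tested delta and beta members, the 10 largest changes in each direction that passed, went the same way in every mouse, reached 1 on the log2 scale and 50 CPM and had a gene name rather than a model number, and up to 4 members of each other list by p. A member of the beta list counted in its totals is not reported here by itself. Ranges of depth from 20000 and under 10000 UMIs, and from 5000 UMIs for the share and the score, and ratios to Sst without shared barcodes, were added after seeing the data. Exact binomial intervals (95%) and the limit of 3 counts behind a share of 0 cover counting error only.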

Additional observations from a re-analysis of the deposited data

How the results depend on the processing

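The genes higher with somatostatin RNA than without numbered 806, and 1757 without TMM, 520 with only 2 classes fitted, 507 for Sst of at least 5% (mouse 1 dropped for too few cells), 81 after thinning, 29 under 10000 UMIs (mouse 3 dropped) and 384 to 625 on leaving out each mouse, lowest without mouse 2. The 414 lower genes became 199 by DESeq2, 107 without TMM, 209 with no replicate block, 232 for insulin of at least 40%, 274 without top doublet scores (mouse 3 dropped), 60 after thinning, 46 under 10000 UMIs and 146 to 352 on leaving out each mouse. Against somatostatin cells, the 878 higher genes became 252 without TMM, 190 for Sst of at least 5%, 106 after thinning, 478 from 20000 UMIs, 85 under 10000 UMIs and 537 to 682 on leaving out each mouse. The 606 lower genes became 337 by DESeq2, 8070 without TMM, 394 with no replicate block, 51 for Sst of at least 5%, 349 without top doublet scores, 109 after thinning, 348 from 20000 UMIs, 30 under 10000 UMIs and 296 to 418 on leaving out each mouse. Fewer genes could be tested after thinning (2945) and under 10000 UMIs (2499); for the other settings the cause was not tested. The higher genes without the block for mouse were 580 and 639. Nkx6-1 detection in thinned cells differed by -4.66 percentage points, and by -11.0 to 0.223 on leaving out each mouse. Of 77 genes followed, 6 reversed in some setting, 37 lost and 16 gained a call. Irx2 ranged from -0.34 without mouse 2 to 3.63 on leaving out each mouse. Clps was at -0.90 and Cel at -1.12 from 20000 UMIs, Egr1 at -0.27, Hspa1a at -0.46 and Jun at -0.51 under 10000 UMIs, and Jun at -0.13 after thinning. Mafa also lost its call without TMM (adjusted p = 0.062, edgeR), for Sst of at least 5% (0.18), insulin of at least 40% (0.068) and at most 10% mitochondrial UMIs (0.060). Hhex (3.47 to 7.10), Rbp4, Ptprz1 and Slc2a2 (-1.73 to -0.78) passed in all settings run. The mean Rbp4 ratio to Sst was 48.6 per 1000 with the shared barcodes left out. The number of cells limits the values of mouse 3, with 11 in the class, and no exact sign-flip test over 3 mice can go below 0.25.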

Other observations

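Insulin cells with an Sst share between 0.1% and 1%, which entered neither class, numbered 176, 186 and 75 in mice 1, 2 and 3. They were shallow in every mouse, with median depths of 3217, 5137 and 3604 UMIs. Rbp4 stood at 229, 252 and 143 unscaled CPM (UMIs per 1000000 of the summed UMIs) in them and Hhex at 13.9, 17.1 and 8.83, between the levels of the classes on either side in each mouse. Mafa stood at 344, 215 and 265 unscaled CPM. Gm42418 took 17.4% of their UMIs in mouse 1, against 3.20% and 0.604% in mice 2 and 3.

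Insulin cells with Sst of at least 5% numbered 4, 29 and 8. Rbp4 stood at 2093, 4653 and 3980 unscaled CPM in them, Hhex at 62.9, 189 and 79.1, and Mafa at 213, 128 and 164. Sst is the measure that chose these cells, so their levels are given as a description.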
